A study of Mus musculus with 2 samples.

Results

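The 7 connexin genes Gja1, Gja4, Gja5, Gjb2, Gjb6, Gjc1 and Gjc3 were followed in single Nes-GFP+ cells of the mouse brain and lung. They were chosen by name, with earlier results of these data known, and are 7 of 25814 genes with counts in either library. All 7 had at least 1 unique molecular identifier (UMI, a tag that marks one captured RNA molecule) in each library. Connexins are the channel proteins of gap junctions. Connexins assemble into a hemichannel in one cell, which docks to a hemichannel of the next cell, and ions, calcium signals and small metabolites pass between the joined cells. In brain, gap junctions link astrocytes into a network and serve myelinating cells, and in vessels they couple endothelial and mural cells along the wall.

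Cells were sorted from the brain and the lung of adult mice of about 6 weeks that carried a GFP transgene under Nestin regulatory elements. Nestin is an intermediate filament protein of neural stem cells (NSCs) that other cell types also make. The labels describe no treatment. They give C57BL/6 as the strain, whereas CD1 and CD1/C3H stock is described in the methods. Each tissue gave 1 droplet library (10x Chromium, 3′ counting), so a difference between brain and lung cannot be told apart from a difference between the 2 libraries, and no test between groups was possible. The paper lists 1 biological replicate for each library, and the number of mice behind it was not given in the sources used here. GFP in the sort marks Nestin regulatory activity and not a lineage, so each gate below is the Nes-GFP+ part of its cell type.

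Before filtering, 4640 barcodes with 26221173 UMIs came from brain and 5981 barcodes with 36816962 UMIs from lung. After the filter on barcodes, 4151 brain cells (median 4209 UMIs) and 5608 lung cells (median 5585 UMIs) remained. Cells were assigned by lists of 8 marker genes, none of them a connexin. A cell entered a gate when at least 3 markers of a list had a UMI and the list led every other list by at least 2 markers. In brain 90.5% of cells entered a gate, in lung 78.2%, which gave 10 brain gates and 7 lung gates of at least 20 cells. Among the 10 leading genes of each of these gates there was no marker of another list used in the same library, except Pdgfra in oligodendrocyte progenitors, which is on both their list and the fibroblast list. The brain held no cell of the smooth muscle gate, and 15 barcodes stood in both tables.

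Levels are given as counts-per-million (CPM), the summed UMIs of a gene scaled to the total UMIs of its gate, with an exact Poisson 95% interval. Ratios carry an exact conditional binomial 95% interval, and the 95% interval of a share of cells is that of Clopper and Pearson. All intervals cover counting error only. Shares are given as counted and, in some comparisons, also after each cell was thinned to 1000 UMIs. Shares given only as counted are not matched for depth. Levels are compared for one gene across gates, never between genes.

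The genes lie on 6 chromosomes of GRCm38 (mm10). Gja1 is at chr10:56377330-56402513 on the plus strand, Gja4 at chr4:127311421-127314039 on the minus strand and Gja5 at chr3:96904693-97077416 on the plus strand. Gjc1 is at chr11:102799579-102819700 and Gjc3 at chr5:137953461-137963098, both on the minus strand. Gjb2, at chr14:57098600-57104702, and Gjb6, at chr14:57123303-57133611, are neighbours on the minus strand with 18600 bases between them.

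Promoters of 2 pairs are shown because each pair had its highest levels in 1 gate, Gjb2 with Gjb6 in brain fibroblasts and Gja4 with Gja5 in lung endothelial cells. Each is the 250 bases before the RefSeq start (GRCm38.p6), 5′ to 3′ on the gene's strand, and that of Gja5 lies inside the longer GENCODE gene. Capitals mark the GC box, GGGCGG on either strand.
Gjb2 promoter, chr14:57104703-57104952, minus strand: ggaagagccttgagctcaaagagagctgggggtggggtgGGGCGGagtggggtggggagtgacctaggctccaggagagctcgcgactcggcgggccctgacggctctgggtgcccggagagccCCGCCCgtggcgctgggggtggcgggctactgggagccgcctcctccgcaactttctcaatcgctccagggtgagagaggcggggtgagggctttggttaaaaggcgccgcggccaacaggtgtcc
Gjb6 promoter, chr14:57133612-57133861, minus strand: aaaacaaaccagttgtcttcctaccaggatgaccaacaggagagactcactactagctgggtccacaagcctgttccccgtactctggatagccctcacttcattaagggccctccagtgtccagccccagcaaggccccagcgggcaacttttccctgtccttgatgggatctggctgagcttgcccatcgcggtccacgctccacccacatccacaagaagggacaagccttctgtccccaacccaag
Gja4 promoter, chr4:127314040-127314289, minus strand: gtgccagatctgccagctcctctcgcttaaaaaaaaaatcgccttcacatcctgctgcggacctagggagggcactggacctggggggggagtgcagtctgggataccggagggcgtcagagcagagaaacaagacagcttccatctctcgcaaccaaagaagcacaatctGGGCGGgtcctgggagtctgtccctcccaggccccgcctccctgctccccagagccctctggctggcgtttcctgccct
Gja5 promoter, chr3:97032152-97032401, plus strand: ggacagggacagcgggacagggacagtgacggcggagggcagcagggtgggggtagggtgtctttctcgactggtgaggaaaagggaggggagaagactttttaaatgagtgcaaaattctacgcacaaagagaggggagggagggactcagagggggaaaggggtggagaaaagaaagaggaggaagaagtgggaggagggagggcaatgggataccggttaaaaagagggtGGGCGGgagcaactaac

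The Gjb2 window held 2 GC boxes and 18 CpG pairs, more CpG pairs than 78.4% of the 27025 RefSeq promoter windows of this length. The Gjb6 window held no GC box and 5 CpG pairs, so these neighbours differed in both features. The Gja4 and Gja5 windows held 1 GC box each, with 9 and 7 CpG pairs. A GC box was found in 32.9% of all windows. The TATA box (TATAAA), the CCAAT box (CCAAT) and the ETS core (CCGGAA) were also searched on both strands, were found in 13.0%, 34.5% and 12.2% of all windows, and were in none of these 4 windows. No searched motif overlapped another in them. Of the 7 genes, 6 had a window, all but Gjc1. A match is a description of the letters only.

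**Figure D1:**
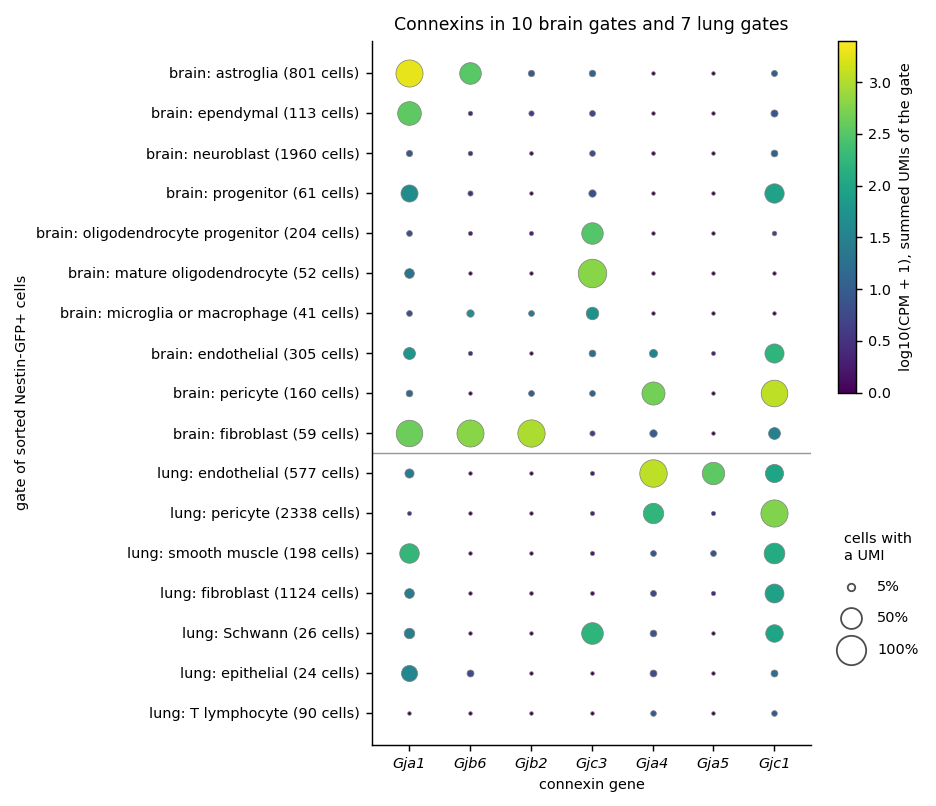
Each dot is 1 connexin (columns) in 1 gate (rows, number of cells in parentheses). Colour is log10(CPM + 1) of the summed UMIs and dot area follows the percent of cells with a UMI. Gja1 stands out in brain astroglia, Gjb6 in brain fibroblasts and astroglia, Gjb2 in brain fibroblasts, Gjc3 in the oligodendrocyte gates and Schwann cells, Gja4 and Gja5 in lung endothelial cells, and Gjc1 in both pericyte gates.

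The first question was how the astroglial connexins were distributed over the neural gates of the brain. Gja1 encodes Cx43, the main gap junction protein of astrocytes, and Gjb6 encodes Cx30, a second astrocyte connexin that appears as astrocytes mature. Gja1 reached 1906 CPM (interval 1858 to 1955) in the astroglial gate of 801 cells, where 85.1% of cells (interval 82.5 to 87.5%) had a UMI. This gate held 86.6% of all brain Gja1 UMIs in 19.3% of the cells. Gjb6 reached 323 CPM (interval 303 to 344) in the same gate, with a UMI in 53.6% of cells. Neuroblasts, which should lack both, gave the background. With a median of 4453 UMIs per cell against 3675 in astroglia, they held Gja1 at 8.38 CPM (3.21% of cells) and Gjb6 at 2.10 CPM (0.969% of cells).

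Within astroglia the level of both genes differed between NSC-type and astrocyte-type cells. The stem type was defined by a UMI of Gfap or Thbs4 with none of Slc7a10 or Cxcl14 (96 cells), and the astrocyte type by the converse (412 cells). Gja1 was at 1016 CPM (interval 907 to 1134) in the stem type and at 2185 CPM (interval 2115 to 2257) in the astrocyte type, a ratio of 0.465 (interval 0.413 to 0.521). It was still found in 78.1% of stem-type cells against 90.5% of astrocyte-type cells. Gjb6 was at 50.9 CPM (interval 29.1 to 82.7) in the stem type and at 433 CPM (interval 402 to 465) in the astrocyte type, a ratio of 0.118 (interval 0.0669 to 0.193), and was found in 11.5% against 69.7% of cells. At equal depth the shares were 5.18% and 32.5% for Gjb6 and 55.2% and 79.3% for Gja1, so stem-type cells kept a UMI of Gja1 in most cells and of Gjb6 in few. The summed level of the 8 astroglial markers also moved with this split, from 15459 CPM in the stem type to 22079 CPM in the astrocyte type, and its part in the result was not tested.

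Gjb6 was the 1 member of the 3 with enough counts that was at least 4-fold lower in the stem type, where 2.45% of 9061 genes were. None was at least 4-fold higher, against 1.88% of genes. The median log2 ratio of the 3 was -1.10, beside 0.12 over all genes compared. The third, Gjc3, was at 25.5 CPM in the stem type (8 UMIs) and 7.16 CPM in the astrocyte type (12 UMIs), a ratio of 3.56 (interval 1.26 to 9.46). By the mean of per-cell CPM this ratio was 4.01, past the threshold, and with a mitochondrial share under 10% it was 1.12. The oligodendrocyte progenitor list summed to 140 CPM in the stem type and 57.9 CPM in the astrocyte type, and its part in the Gjc3 levels was not tested. Gjb2 had 2 and 15 UMIs in the stem and astrocyte types and Gjc1 had 4 and 12, and Gja4 and Gja5 had none in either.

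Ependymal cells, the ciliated lining of the ventricles, carried Gja1 with hardly any Gjb6. Gja1 was at 361 CPM (interval 319 to 408) in 113 cells, 43.1-fold above neuroblasts (interval 33.4 to 56.1), with a UMI in 64.6% of cells. Gjb6 had 1 UMI there, at 1.40 CPM. The 8 astroglial markers summed to 1327 CPM in the ependymal gate, with none of the 8 at 0, and the part of shared or free astroglial RNA in this Gja1 level was not tested.

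Dividing or activated progenitors (61 cells, marked by genes such as Mki67, Top2a and Egfr) had Gja1 at 43.2 CPM (interval 27.4 to 64.8), 5.15-fold above neuroblasts (interval 3.09 to 8.28). Gjc1, which encodes Cx45 and is known from neural progenitors as well as vessels, was at 90.1 CPM (interval 66.5 to 120) in progenitors and at 10.6 CPM in neuroblasts, a ratio of 8.52 (interval 5.91 to 12.1). Progenitors were sequenced more deeply, with a median of 9281 UMIs per cell. After thinning, 7.69% of progenitors and 0.65% of neuroblasts had a Gjc1 UMI, and 3.94% and 0.835% a Gja1 UMI. Both genes were thus higher in these progenitors than in neuroblasts at equal depth. Of the 61 cells, 19 stood at the minimum number of markers or lead. Without the upper limit of 4000 genes per cell the gate held 125 cells. The astroglial list summed to 1271 CPM in progenitors, whose median cell had 3 of its 8 markers, and 379 CPM in neuroblasts, and its part in the Gja1 level was not tested.

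**Figure D2:**
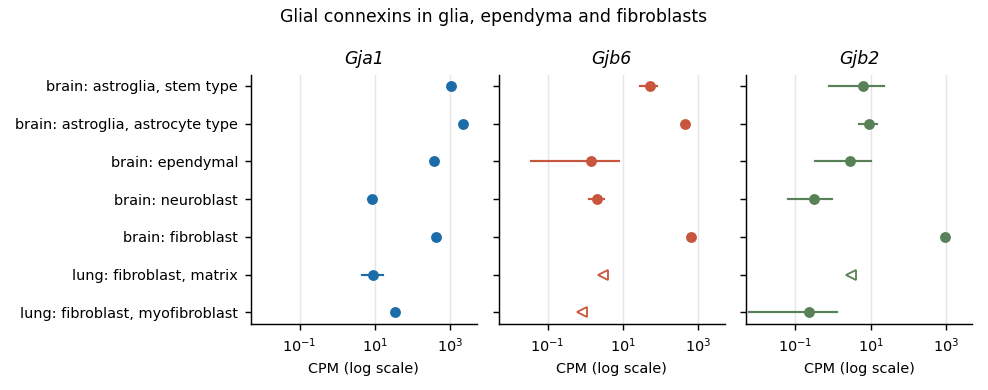
CPM (log axis) of Gja1, Gjb6 and Gjb2 in 5 brain and 2 lung gates. Points are summed levels, bars exact Poisson 95% intervals, and open triangles the upper limit of a gate with 0 UMIs. Gjb2 is high in brain fibroblasts only among the gates drawn, and Gjb6 has no UMI in either lung fibroblast group.

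Brain fibroblasts, a small gate of 59 cells defined by collagen and Dcn transcripts, held 3 connexins at high levels. Gjb2 encodes Cx26, known from the leptomeninges and from many epithelia. It was at 953 CPM (interval 853 to 1061) with a UMI in 86.4% of cells (interval 75.0 to 94.0%), and this gate held 86.8% of brain Gjb2 UMIs in 1.42% of the cells. Gjb6 was at 627 CPM (interval 546 to 716) in 84.7% of cells, its highest level in any gate and 1.94 times that of astroglia. Gja1 was at 427 CPM (interval 361 to 502) in 81.4% of cells, second to astroglia and not separated from ependyma by the intervals. In the order of Gjb2 levels the next gate was microglia at 23.2 CPM, where all 4 UMIs came from 1 cell. Astroglia had Gjb2 at 8.99 CPM (28 UMIs, 3.37% of cells).

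The astroglial list summed to 1080 CPM in these fibroblasts and to 20387 CPM in astroglia itself, and its part in the Gjb6 and Gja1 levels was not tested. The same list stood at 1411 CPM in microglia, where Gjb6 was at 46.4 CPM, and 7 of those 8 UMIs came from 1 cell.

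Lung fibroblasts showed a different set. In 1124 cells Gjb2 had 1 UMI, Gjb6 had none, and Gja1 was at 24.4 CPM (interval 21.0 to 28.1) in 9.70% of cells. The brain gate was therefore higher by 17.5-fold for Gja1 (interval 14.04 to 21.9), by a ratio of 7390 for Gjb2 that rests on the 1 lung UMI (interval 1317 to 292761), and at least 1620-fold for Gjb6 against a floor of 3 UMIs over the lung gate, where the exact interval of the ratio starts at 1306. Gjc1 went the other way, at 28.9 CPM in brain (10 UMIs) and 84.3 CPM in lung (interval 78.0 to 91.0), a ratio of 0.342 (interval 0.163 to 0.634). Of the 4 members with enough counts, 3 were at least 4-fold higher in the brain gate, where 5.04% of 9584 genes were, and 0 were at least 4-fold lower, where 5.74% were. The median log2 ratio of the 4 was 7.40, beside -0.01 over all genes compared. Gjb2 and Gjb6 reached 10 CPM only in the brain gate, so given their lung counts these 2 calls were fixed. The median rests in part on the floor set for Gjb6. With a minimum of 5 UMIs and none on CPM, 17.9% of genes were at least 4-fold higher in the brain gate.

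The lung fibroblasts fell into myofibroblast-type cells (648, marked by genes such as Aspn and Hhip), matrix-type cells (153, marked by genes such as Col13a1 and Tcf21) and 323 others. Gja1 was at 33.8 CPM in myofibroblasts and 9.02 CPM in matrix cells, a ratio of 3.74 (interval 2.03 to 7.66). Gjc1 was at 96.5 and 63.9 CPM, a ratio of 1.51 (interval 1.18 to 1.95). Smooth muscle markers summed to 1184 CPM in the myofibroblasts and 412 CPM in the matrix cells, and their part in these differences was not tested. Against either lung type, brain fibroblasts stayed higher in Gja1, by 12.7-fold over myofibroblasts (interval 10.02 to 16.001) and by 47.4-fold over matrix cells (interval 25.7 to 97.0).

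The 3 connexins of brain fibroblasts were found together in single cells. Of the 59 cells, 39 (66.1%) had a UMI of all 3, 13 had 2, 6 had 1 and 1 had none. Gjb2 and Gjb6 were detected jointly in 45 cells (76.3%, interval 63.4 to 86.4%), and the product of the separate shares gives 43.2 cells. In astroglia the same pair was joint in 20 cells, 74.1% of the 27 Gjb2-positive cells but 4.66% of the Gjb6-positive cells, where the product gives 14.5.

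The next question was how Gjc3 changed along the oligodendrocyte lineage. Gjc3 encodes Cx29, a protein of oligodendrocytes and Schwann cells that is known from myelin next to the axon. It was at 311 CPM (interval 279 to 347) in 204 oligodendrocyte progenitors and at 633 CPM (interval 563 to 710) in 52 mature oligodendrocytes, a ratio of 2.03 (interval 1.73 to 2.39). A UMI was found in 52.9% and 94.2% of cells. Median depths were 4612 and 10459.5 UMIs per cell, and after thinning the shares were 25.8% and 47.5%, so the mature cells remained higher. In neuroblasts, which should lack it, Gjc3 was at 5.03 CPM in 2.40% of cells.

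This step from progenitor to mature cell was below the 4-fold threshold. Gjc3 was the only member with enough counts, and 0 of 1 was called in either direction, against 4.45% of 8497 genes at least 4-fold higher and 14.5% at least 4-fold lower in mature cells. Its log2 ratio of 1.024 stood beside a median of -0.68 over all genes compared. The upper limit of 4000 genes per cell bore on this ratio. Without it the mature gate grew from 52 to 98 cells, Gjc3 there fell to 513 CPM and the ratio was 1.38.

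Brain cells in no gate also carried Gjc3, at 235 CPM (467 UMIs). A gate for committed precursors, the stage between progenitor and mature cell, was therefore added after these levels were seen. It took ungated cells with at least 4 of Gpr17, Bmp4, Tcf7l2, Enpp6, Bcas1, Itpr2, Fyn and Tns3 and at least 1 of Sox10, Olig1 and Olig2. These 97 cells held 412 of the 467 UMIs. Their Gjc3 level was 852 CPM (interval 772 to 938), 2.74 times that of progenitors (interval 2.36 to 3.17) and above mature cells, which stood at 0.743 of it (interval 0.638 to 0.866). The 1 cell with the most Gjc3 in the brain, with 32 UMIs, was among them. As counted, 67.0% of committed precursors and 94.2% of mature cells had a UMI, at median depths of 2804 and 10459.5 UMIs. After thinning, the shares were 48.9% and 47.5%, so the shares of these stages lay closer together at equal depth than their CPM. Gpr17, one of the genes that chose the committed precursors, was also the leading gene of the progenitor gate, so these stages were not cleanly separated.

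Gjb1, a relative outside the 7 genes, appeared at another point of the lineage. It encodes Cx32, a connexin of myelinating cells. Gjb1 had 4 UMIs in progenitors, 0 in committed precursors and 164 in mature cells, where it reached 357 CPM (interval 304 to 416).

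In lung, Gjc3 was highest in the small Schwann gate. It was at 164 CPM (interval 105 to 243) in 26 cells, 14 of which had a UMI, against 1.19 CPM in lung pericytes, a ratio of 137 (interval 68.1 to 287). Gjb1 had 0 UMIs in these 26 cells, which allows a share of cells with a captured UMI of up to 13.2% and sets no limit on cells that express it. The other lung gates held Gjc3 at 0.910 CPM or less except pericytes. In the Schwann gate 11 of the 26 cells stood at the minimum number of markers or lead, the median cell had 3 of the 8 fibroblast markers, and the fibroblast list summed to 10007 CPM against 4717 CPM for the Schwann list, and its part in the Gjc3 level was not tested.

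**Figure D3:**
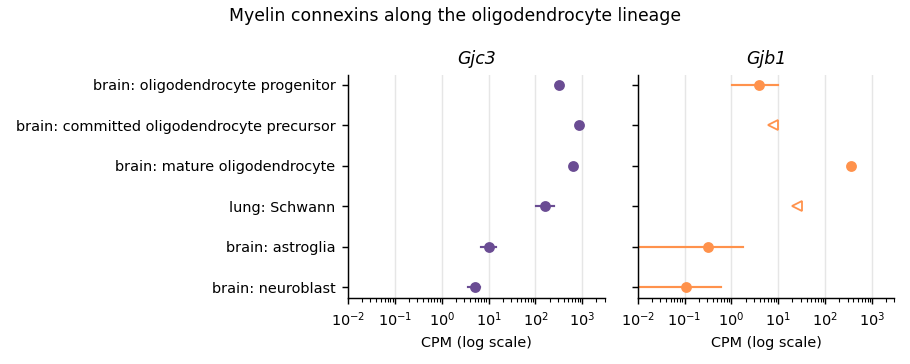
CPM (log axis) of Gjc3 and Gjb1 in the stages of the oligodendrocyte lineage, lung Schwann cells and 2 further brain gates. Points are summed levels, bars exact Poisson 95% intervals, and open triangles the upper limit of a gate with 0 UMIs. Gjc3 is above 300 CPM at all 3 stages, Gjb1 only at the mature stage.

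The vascular connexins were compared between brain and lung endothelial cells. Gja4 encodes Cx37 and Gja5 encodes Cx40, the connexins of arterial endothelium. Gja4 was at 1145 CPM (interval 1109 to 1182) in 577 lung endothelial cells, with a UMI in 87.5% of cells, and at 31.0 CPM (interval 21.7 to 42.9) in 305 brain endothelial cells, with a UMI in 6.23%. Lung was higher by 36.9-fold (interval 26.6 to 52.8). Gja5 was at 359 CPM (interval 339 to 380) in lung, in 57.5% of cells. It had 1 UMI in the brain endothelial gate, which was its only UMI in the whole kept brain library, and the ratio of lung to brain was 417 (interval 74.7 to 16482).

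Gja1 and Gjc1 were higher in the brain gate. Gja1 was at 58.6 CPM (68 UMIs) in brain and 24.3 CPM (80 UMIs) in lung, a ratio of 2.41 (interval 1.72 to 3.38). Gjc1 was at 162 CPM (interval 140 to 187) in brain and 94.7 CPM (interval 84.5 to 106) in lung, a ratio of 1.71 (interval 1.42 to 2.06). The pericyte list summed to 418 CPM in the brain gate and 95.9 CPM in the lung gate, and the astroglial list to 128 CPM in the brain gate, and their part in these levels was not tested. Gjc3 had 17 UMIs in brain (14.6 CPM), 6 of them in 1 cell, and 3 in lung. Gjc3 was the 1 member of 5 at least 4-fold higher in brain, where 4.6% of 9302 genes were, and Gja4 and Gja5 were the 2 at least 4-fold lower, where 6.59% were. Gjc3 reached 10 CPM only in brain and Gja5 only in lung, so given their levels in the other gate these 2 calls were fixed. Gjb2 and Gjb6 had 0 and 2 UMIs in the brain gate and none in lung.

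The 2 endothelial gates differed in the share of cells called arterial. A cell was called arterial with at least 2 of Bmx, Sema3g, Gkn3, Efnb2, Hey1 and Fbln5 and more of these than of the 6 venous markers. By this rule 518 of 577 lung endothelial cells but 42 of 305 brain endothelial cells were called arterial, while 88 brain cells were called venous. Bmx, Sema3g, Efnb2, Hey1 and Fbln5 were found in more lung than brain endothelial cells (Sema3g in 71.8% and 14.8%). Gkn3 was found in fewer (7.28% and 9.51%). Of the venous markers, Vwf was found in 67.4% of lung and 33.4% of brain cells, and Slc38a5 in 0% and 56.7%. The 2 lists thus did not weigh alike in the 2 tissues. The comparison was therefore repeated in arterial cells alone, an alternative chosen after the levels were seen. Gja4 was then at 162 CPM (interval 108 to 234) in brain and 1250 CPM (interval 1210 to 1291) in lung, and lung was higher by 7.71-fold (interval 5.32 to 11.6) in place of 36.9-fold. Gja5 stayed at 1 UMI in brain and was at 396 CPM in lung, a ratio of 68.4 (interval 12.3 to 2705). Gjc1 no longer differed beyond its counting error, with a ratio of lung to brain of 1.06 (interval 0.640 to 1.87). For Gja1 the difference widened to 10.2-fold higher in brain (interval 6.41 to 15.9).

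Arterial and other endothelial cells were next compared within each tissue. In brain, Gja4 was at 162 CPM in arterial cells and 8.10 CPM in the other 263 cells, a ratio of 20.03 (interval 8.89 to 50.9), and the 88 venous cells held none of its 36 UMIs. Gja1 was at 191 CPM in arterial cells and 35.4 CPM in the others, a ratio of 5.40 (interval 3.25 to 8.94). Gjc1 ran the other way, at 92.7 and 174 CPM, a ratio of 0.532 (interval 0.298 to 0.889). Gja1 and Gja4 were the 2 of 3 members at least 4-fold higher in arterial cells, where 0.733% of 7092 genes were, and none was at least 4-fold lower, where 2.09% were. Gja4 reached 10 CPM only in the arterial cells. By the mean of per-cell CPM the Gja1 ratio was 3.92, below the threshold. The astroglial list summed to 104 CPM in the arterial cells and 132 CPM in the others. The neuroblast list summed to 521 CPM (90 UMIs) and 67.8 CPM (67 UMIs), with all 8 markers present in both. The pericyte list summed to 556 and 394 CPM, with Notch3, Cox4i2 and Cspg4 at 0 in the arterial cells. The part of these lists in the Gja1 and Gja4 levels was not tested.

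In lung, Gja4 was at 1250 CPM in arterial cells and 144 CPM in the other 59 cells, a ratio of 8.71 (interval 6.50 to 12.0). Gja5 had 1182 UMIs in arterial cells and 2 in the others, a ratio of 62.1 (interval 17.2 to 514). Gja1 was lower in arterial cells, at 18.8 CPM against 76.6 CPM, a ratio of 0.245 (interval 0.1496 to 0.414). Gja4 and Gja5 were the 2 of 4 members at least 4-fold higher, where 2.8% of 8884 genes were, and Gja1 the 1 at least 4-fold lower, where 1.69% were. Gja5 reached 10 CPM only in the arterial cells. By the mean of per-cell CPM the Gja1 ratio was 0.302, short of the threshold. The fibroblast list summed to 417 CPM in arterial cells and 399 CPM in the others, and the smooth muscle list to 73.4 and 89.3 CPM. Of the 24 Gja1 UMIs in the other cells, 17 were in 25 cells with a UMI of Ednrb or Apln, genes of lung capillary endothelium, where Gja1 was at 114 CPM.

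Endothelial cells were also grouped by the number of arterial markers with a UMI. In lung, Gja5 was at 91.4 CPM in cells with 2 markers, 372 CPM with 4 and 810 CPM with 6. Gja1 in lung was at 84.6, 13.5 and 6.00 CPM in the same classes. In brain, Gja4 was at 3.76 CPM in the 214 cells with no arterial marker and 178 CPM in the 14 cells with 3, and Gja1 was at 33.9 and 296 CPM. Over these classes Gja1 was higher with more arterial markers in brain and lower in lung. The brain classes above 3 markers held 5 cells or fewer each, and with 6 markers (3 cells) Gja1 was at 48.4 CPM from 1 UMI. In lung, Gja4 was at 1458 CPM with 5 markers and 1110 CPM with 6.

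**Figure D4:**
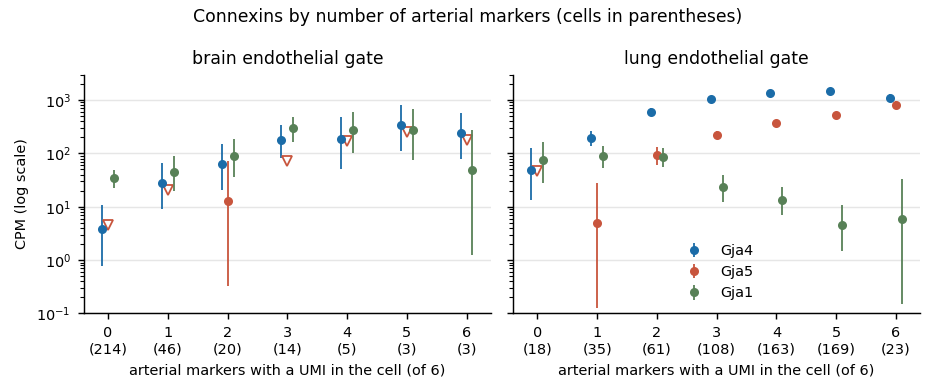
CPM (log axis) of Gja4, Gja5 and Gja1 in endothelial cells grouped by the number of arterial markers with a UMI (cells in parentheses), brain left and lung right. Bars are exact Poisson 95% intervals and open triangles upper limits at 0 UMIs. From 0 to 5 markers Gja4 is higher at each step in both panels, Gja1 in lung is lower from 3 markers on, and Gja5 has 1 UMI in the brain panel.

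Pericytes, the mural cells of capillaries, carried Gjc1 and Gja4 in both tissues. Gjc1, the connexin of mural cells, was at 1140 CPM (interval 1041 to 1245) in 160 brain pericytes and 578 CPM (interval 564 to 592) in 2338 lung pericytes, a ratio of 1.97 (interval 1.80 to 2.16). These were its highest and second highest levels. A UMI was found in 81.9% and 85.6% of cells at median depths of 2555.5 and 5182 UMIs, and in 60.8% and 42.1% after thinning. Gja4 was at 471 CPM (interval 408 to 540) in brain and 169 CPM (interval 161 to 176) in lung pericytes, a ratio of 2.79 (interval 2.40 to 3.23). Both genes were therefore higher in the brain gate, by less than 4-fold. The fibroblast list summed to 587 CPM in brain and 2740 CPM in lung pericytes, whose median cell had 3 of its 8 markers, and the smooth muscle list to 343 and 1833 CPM. Their part in these differences was not tested.

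Gja1 was scarce in pericytes, with 6 UMIs in brain (13.99 CPM) and 22 in lung (1.87 CPM), 6 of which came from 1 cell. Without Scrublet doublets the lung level was 0.691 CPM, and the ratio of brain to lung was 20.5 in place of 7.46. In brain pericytes the astroglial list summed to 261 CPM, with all 8 markers present, and the fibroblast list to 587 CPM, with Dpt, Col1a1 and Mfap4 at 0. The part of both lists in those 6 UMIs was not tested. Of 3 members with enough counts, Gja1 was the 1 at least 4-fold higher in brain pericytes, where 6.53% of 9478 genes were, and 0 were at least 4-fold lower, where 5.96% were. Gja1 reached 10 CPM only in the brain gate, so given its lung level this call was fixed. With a minimum of 5 UMIs and none on CPM, 20.3% of genes were at least 4-fold higher in brain pericytes. The median log2 ratio of the 3 was 1.48, beside 0.05 over all genes compared. Gja5 had 0 UMIs in brain pericytes and 21 in lung pericytes, and Gjb6 had none in either.

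The place of Gja4 in the vessel wall differed between the 2 libraries. In brain its level in endothelial cells was 0.0659 of that in pericytes (interval 0.0449 to 0.0943), and 77.7% of brain Gja4 UMIs lay in pericytes. In lung its level in endothelial cells was 6.79 times that in pericytes (interval 6.42 to 7.17), and 62.3% of lung Gja4 UMIs lay in endothelial cells. In arterial cells alone the brain ratio was 0.344 (interval 0.223 to 0.513) and the lung ratio 7.41 (interval 7.01 to 7.83). In lung pericytes the endothelial list summed to 47.8 CPM against 8117 CPM in endothelial cells. In brain pericytes it summed to 685 CPM against 17192 CPM in endothelial cells, and its part in the Gja4 levels was not tested. Gjc1 was lower in endothelial cells than in pericytes in both, at 0.142 of the pericyte level in brain (interval 0.119 to 0.168) and 0.164 in lung (interval 0.146 to 0.184).

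Gja4 and Gjc1 were found together in 83 of 160 brain pericytes (51.9%, interval 43.8 to 59.8%), where the product of the shares gives 80.2 cells. In lung the pair was joint in 999 of 2338 pericytes (42.7%, interval 40.7 to 44.8%), where the product gives 949 cells, or 972 when cells above and below the median depth were taken apart. In lung endothelial cells Gja4 and Gja5 were joint in 319 of 577 cells (55.3%), where the product gives 291 cells, and in 317 of 518 arterial cells, where it gives 308. In the whole gate, 96.1% of Gja5-positive cells also had Gja4, while 63.2% of Gja4-positive cells had Gja5.

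Lung smooth muscle cells (198) held more Gja1 and less Gja4 and Gjc1 than lung pericytes. Gja1 was at 177 CPM (interval 156 to 201) in 43.4% of smooth muscle cells, 94.5-fold above lung pericytes (interval 61.0 to 154). Without Scrublet doublets the pericyte level was 0.691 CPM and the ratio 259. Gja4 was at 7.26 CPM (10 UMIs), and its level was 23.2-fold higher in pericytes (interval 12.6 to 48.5). Gjc1 was at 121 CPM (interval 103 to 140), with pericytes 4.79-fold higher (interval 4.11 to 5.62). Gja5 had 9 UMIs in these cells, in 5 cells. Of 3 members with enough counts, Gja1 was the 1 at least 4-fold higher in smooth muscle, where 5.98% of 9394 genes were, and Gja4 and Gjc1 the 2 at least 4-fold lower, where 5.17% were. Gja1 reached 10 CPM only in smooth muscle, and Gja4 only in pericytes.

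The smooth muscle gate was the least separated of the vascular gates. Of its 198 cells, 121 stood at the minimum number of markers or lead, its median cell had 4 of the 8 fibroblast markers, and the fibroblast list summed to 8618 CPM. The part of fibroblast RNA in the connexin levels of this gate was not tested. Most lung Gja1 lay outside every gate, with 644 of 1190 UMIs (54.1%) in 1223 ungated cells. Of these, 495 were in the 532 ungated cells whose most frequent list was smooth muscle, where Gja1 was at 139 CPM, Gja4 at 6.18 CPM and Gja5 at 2.53 CPM.

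**Figure D5:**
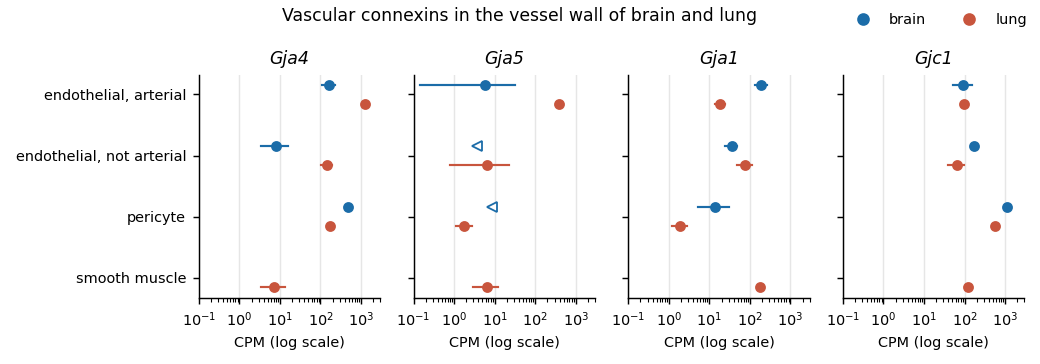
CPM (log axis) of Gja4, Gja5, Gja1 and Gjc1 in arterial and other endothelial cells, pericytes and smooth muscle cells of brain (blue) and lung (red). The brain had no smooth muscle gate. Bars are exact Poisson 95% intervals and open triangles upper limits at 0 UMIs. Gja4 peaks in pericytes in brain and in arterial endothelium in lung, and Gjc1 is highest in pericytes in both.

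Over the 17 gates, which leave out the added committed precursors, the interval of the leading gate did not overlap that of the second gate for any of the 7, and the leading level was 4.46 times the second for Gja1, 2.43 times for Gja4, 55.0 times for Gja5, 41.0 times for Gjb2, 1.94 times for Gjb6, 1.97 times for Gjc1 and 2.03 times for Gjc3. For Gjc3 the committed precursors, at 852 CPM, stood above this first gate, and without the limit of 4000 genes its ratio was 1.38. Neighbours further down often could not be told apart. For Gjc1, the gates from brain endothelium at 162 CPM to lung fibroblasts at 84.3 CPM formed a run in which each interval overlapped the next. For Gja1, ranks from brain endothelium at 58.6 CPM down to lung pericytes at 1.87 CPM formed such a run.

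The genes with the most similar pattern over the 17 gates were named by Pearson correlation of log2(CPM + 10), a description over gates of 2 libraries with no test, among 13509 genes. For Gja1 they were Maob (0.89), Aifm3 (0.87) and Aox1 (0.85), and for Gjb6 they were Ranbp3l (0.96), A2m (0.93) and Mgat4c (0.91). For Gjb2 they were Slc22a6, Slc13a4 and Asgr1 (each 0.98), all highest in brain fibroblasts. For Gja4 they were Oaz2 (0.88), Pcdh12 (0.88) and Snrk (0.86), and for Gja5 they were Gpihbp1, Esr2 and Ssu2 (each 0.99). For Gjc1 they were Mprip (0.92), Rit1 (0.90) and Itga1 (0.89). For Gjc3 they included Sox10 (0.97), a marker of the lung Schwann list used for gating, and Plxnb3 (0.96). Among the members themselves, Gjb2 and Gjb6 (0.82), Gja4 and Gjc1 (0.71) and Gja4 and Gja5 (0.68) were the most alike.

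Of 13 other connexins, 7 had a UMI in brain and 6 in lung. Outside mature oligodendrocytes Gjb1 had at most 4 UMIs in any gate, and none in lung. The pannexins, channel proteins related in shape but not in sequence, were led by Panx1, with 95.1 CPM in committed precursors (46 UMIs), 47.6 CPM in lung T lymphocytes (12 UMIs), 41.9 CPM in oligodendrocyte progenitors (44 UMIs) and 38.0 CPM in neuroblasts (363 UMIs).

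All 9 junction partners had counts in both libraries, each at 20 UMIs or more in 1 gate. Tjp1, the scaffold protein ZO-1 that binds connexin tails, was at 579 CPM (interval 536 to 624) in brain endothelium and 500 CPM (interval 476 to 525) in lung endothelium, and at 336 and 118 CPM in brain and lung pericytes. Of the cadherins, Cdh5 was highest in lung endothelium at 1252 CPM, where it is itself a gate marker, and Cdh2 in lung pericytes at 204 CPM. Dbn1 was highest in neuroblasts at 484 CPM, Ezr in ependyma at 668 CPM, Cav1 in lung endothelium at 1017 CPM and Nov (Ccn3) in lung smooth muscle at 69.0 CPM. Csnk1d was highest in microglia at 116 CPM, from 20 UMIs with a wide interval (70.9 to 179).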

How the data were processed

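One droplet library of Nes-GFP+ cells from brain and one from lung were used. The authors processed reads with UMI-tools, aligned them to mm10 with STAR 2.7.1a and assigned them to genes with featureCounts 1.6.4, and deposited UMI counts per gene and barcode, without normalization. The annotation version and strand setting were not given in the sources used here, so reads of overlapping antisense genes cannot be told apart.

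Following the published filter, barcodes needed more than 200 and fewer than 4000 genes and a mitochondrial share under 40%. Marker gates were cut and UMIs summed per gate in Python 3.11.15 with scipy 1.17.1. Doublets were kept. Scrublet (scanpy 1.11.5) marked 44 brain and 69 lung cells, and their removal was an alternative. With 1 library per group no test, SE or p-value was computed, and intervals cover counting error only. Genes with at least 20 UMIs in both gates together and 10 CPM in one were compared, a 4-fold ratio counted as called, and 0 UMIs were set to a floor of 3 UMIs over the gate. A gene at 10 CPM in only 1 gate entered through the gate where it was higher. The fold call was tested on simulated data. The members, marker lists and comparisons were chosen with earlier results of these data known. The pair of Gja4 with Gjc1 and the comparisons of committed precursors, arterial cells alone, endothelial cells with pericytes, fibroblast types, ependyma or progenitors with neuroblasts, and Schwann cells with pericytes were added after levels were seen. Named genes were all 7 members, family genes with at least 20 UMIs in 1 gate, and the 3 genes most like each member among those with at least 100 UMIs over the gates. Some genes that this rule names are not reported here. Promoters and positions came from RefSeq (GRCm38.p6) and GENCODE M21 (GRCm38).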

Additional observations from a re-analysis of the deposited data

Results flagged for a closer look

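Gja4 was flagged because its direction between endothelial cells and pericytes was opposite in the 2 tissues. The ratio of endothelial cells to pericytes was 0.0659 in brain and 6.79 in lung. Each tissue was 1 library, and whether the tissues differ was not tested.

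Gja1 was flagged because its direction between arterial and other endothelial cells was opposite in the 2 tissues. The ratio of arterial to other cells was 5.40 in brain and 0.245 in lung. By the mean of per-cell CPM these were 3.92 and 0.302, both short of 4-fold. This difference was not tested either, for the same reason.

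A connexin signal also appeared in cells that no gate took up. Gjc3 was at 235 CPM in brain cells of no gate, and Gja1 at 92.2 CPM in lung cells of no gate. These cells held 38.8% of brain Gjc3 UMIs and 54.1% of lung Gja1 UMIs, and these shares were the reason for the flag.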

How the results depend on the processing

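No paired analysis was possible because each group was 1 library, and no replicate could be left out. Of 284 levels recomputed under the alternatives, 248 stayed within the counting interval and 36 moved, and of 197 ratios 180 stayed and 17 moved. All 15 recomputed joint counts stayed, also without the barcodes found in both libraries. Thinning to 2000 UMIs raised all 7 shares recomputed, since it keeps more UMIs per cell. No ratio called at 4-fold reversed. Of 117 alternatives of called ratios 2 lost the call, both for Gja1 in arterial against other endothelial cells by the mean of per-cell CPM (3.92 in brain, 0.302 in lung). In 2 cases a ratio gained the call, Gja1 in brain over lung endothelium in arterial cells alone (10.2) and Gjc3 in stem-type over astrocyte-type astroglia by the mean of per-cell CPM (4.01), and 1 crossed to the other side of 1, Gjc1 in brain over lung endothelium in arterial cells alone (0.946).

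With a lead of at least 3 markers, Gja1 in astroglia was at 1974 CPM. By the mean of per-cell CPM, Gja1 in astroglia was at 1849 CPM, Gja4 in lung endothelium at 1107 CPM, Gjb6 in brain fibroblasts at 730.1 CPM and Gjc3 in mature oligodendrocytes at 739 CPM. Without the limit of 4000 genes, Gjb6 in brain fibroblasts was at 545 CPM, Gjc3 in mature oligodendrocytes at 513 CPM and its ratio over progenitors 1.38. With Leiden clusters, where the mature cluster held 153 cells, that Gjc3 level was 744 CPM. In arterial cells alone, the Gja4 ratio of brain to lung endothelium was 0.130. The cause of these shifts was not tested. Removing Scrublet doublets lowered Gja1 in lung pericytes from 1.87 to 0.691 CPM, so that the ratio of smooth muscle to pericytes was 259 and that of brain to lung pericytes 20.5.

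With a minimum of 5 UMIs and none on CPM, which admits genes of fewer counts, the percent of genes past 4-fold was 20.3 higher and 3.92 lower for pericytes, 17.9 higher and 3.75 lower for fibroblasts, 4.84 higher for stem-type astroglia, 1.78 higher for brain arterial cells, 7.23 lower for lung arterial cells and 9.86 higher for smooth muscle. No cluster was named smooth muscle in lung or progenitor in brain, so these gates have no cluster value. Depth limits the rarest values, those resting on 1 to 9 UMIs.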
